A study of Homo sapiens with 6 samples.

Results

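Mitotic checkpoint, kinetochore and cytokinesis genes encode the machinery that sorts copied chromosomes and parts the daughter cells. The 44 genes described here were chosen by role and comprise 13 mitotic kinases and their partners, 9 genes of the spindle checkpoint and anaphase, 10 genes of the kinetochore and centromere, 9 genes of the spindle and cytokinesis, and FOXM1, TOP2A and MKI67. The platform annotation gave them 93 of the 54613 non-control probe sets, and 92 of these were assigned to 1 gene alone. The remaining probe set, 204962_s_at, was shared by CENPA and SLC35F6. Each gene was read by its probe set with the highest mean log2 signal, which gave 44 of the 19752 genes that had a probe set of their own.

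The cells were NCI-H226, an established line from a human mesothelioma, and Affymetrix Human Genome U133 Plus 2.0 arrays read their RNA. The spheroids were 3 cultures grown without added matrix, each spheroid from 10000 cells in a well coated with poly-HEMA, a polymer that prevents attachment, and incubated for 24 hours. They were compared with 3 adherent monolayer cultures. The paper states that the line was kept as monolayers in medium with fetal bovine serum, and it names no separate medium for the spheroids. Each culture had 1 array, the labels call the 3 arrays of each group biological replicates, and all 6 arrays came from this 1 line.

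Entry into mitosis is driven by CDK1 bound to cyclins A and B, with the Aurora and Polo-like kinases. Kinetochores assemble on centromeres marked by the histone variant CENPA and bind spindle microtubules. Until every kinetochore is attached, the spindle checkpoint holds back CDC20, the activator of the anaphase-promoting complex, and only then are securin and cyclin B degraded. Most of these genes are transcribed late in the cell cycle, and their RNA is therefore known as a mark of dividing cells.

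Signals are linear MAS5 intensities, listed in the order of replicates 1, 2 and 3. Fold changes are differences of log2 signal, spheroids minus monolayers, after each array was centred on its median, and are given with their standard error (SE). A gene was called downregulated in spheroids when its adjusted p by limma was under 0.05, with Benjamini-Hochberg adjustment over all tested probe sets. The median signal of an array was between 15.2 and 18.0 in spheroids and between 14.6 and 14.7 in monolayers. The ACTB 3' to 5' signal ratio, a measure of RNA integrity, was 1.114, 1.177 and 1.234 in spheroids, against 1.088, 1.086 and 1.109 in monolayers. In this ratio every spheroid lay above every monolayer (exact permutation test, two-sided, p = 0.1, which is the lowest possible with 3 arrays a group, and 0.2 after Benjamini-Hochberg over the 2 ratios tested). The GAPDH ratio was 0.8998, 0.9137 and 0.8896 in spheroids, against 0.9144, 0.8821 and 0.8869 in monolayers, with overlap (two-sided exact permutation test, p = 0.6). Spheroid 3 had the highest ACTB ratio and the lowest GAPDH ratio of the spheroids and, as given below, the lowest mitotic signals, and the part of RNA integrity in the result was not tested. Mesothelial markers had a summed signal of 10 genes, most of it from KRT8, KRT18 and KRT19, from 23216 to 26461 in spheroids and from 16839 to 24718 in monolayers. The sums ranged from 158 to 189.6 in spheroids and from 117 to 147 in monolayers for 6 leukocyte markers, and from 178 to 233 in spheroids and from 243 to 484 in monolayers for 7 endothelial markers. They ranged from 1976 to 2255 in spheroids and from 1822 to 2384 in monolayers for 7 fibroblast markers, which the bright COL1A1 and THY1 made up for the most part. None of these markers was listed at 0, and 1 mesothelial gene (PDPN) and 1 fibroblast gene (PDGFRA) were called higher in spheroids. Monolayer 1 stood apart from the other monolayers in several of these markers, and spheroid 1 often lay to the same side. Both were the highest of their group in CALB2, KRT5, the endothelial KDR and the fibroblast COL3A1, and the lowest in the endothelial TIE1. CALB2, which encodes calretinin, had signals of 2238, 1317 and 1765 in spheroids, against 1582, 163 and 83.6 in monolayers, and KRT5 had 910.5, 267 and 290.4 in spheroids, against 1845, 129.9 and 79.3 in monolayers. Without monolayer 1 the median log2 fold change of the mitotic genes was -1.40, with 40 of 44 downregulated, against 10.8% of all genes (limma). Without spheroid 1 it was -1.64, with 41 of 44 downregulated, against 7.14% of all genes (limma).

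The mitotic genes were lower in spheroids almost without exception. Of 44 genes, 42 were downregulated, against 9.23% of all genes, and 0 were upregulated, against 3.89% of all genes (limma). At an unadjusted p under 0.05, limma gave 43 lower, against 18.0% of all genes, and 0 higher, against 9.63%. The methods' t-test after Benjamini-Hochberg adjustment gave 16 lower, against 2.66% of all genes, and 0 higher, against 0.663%. The fall was over 2-fold in 37 genes, against 3.76% of all genes. The groups did not overlap in 43 genes, with spheroids lower, against 20.6% of all genes. The median log2 fold change of the 44 genes was -1.46, which is 36.4% of the monolayer level after centring, and the median of all genes was -0.06. All 44 had a negative fold change and a mean level above the median of all probe sets. Among genes above that level, 14.5% were called lower, 5.74% were called lower by over 2-fold and 29.6% did not overlap with spheroids lower. In the order of fold changes of all genes, lowest first, the mitotic genes lay between percentiles 0.6 and 24.7 with a median of 3.0. In these bulk samples, fewer dividing cells and less RNA in each dividing cell cannot be told apart.

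The 3 spheroid cultures differed among themselves, with spheroid 3 the lowest in most genes. After centring and relative to the monolayer mean, the median mitotic gene stood at 45.2%, 33.7% and 29.95% in the 3 spheroids, against 105.9%, 93.7% and 99.5% in the 3 monolayers. Before centring, the geometric mean signal of the 44 genes was 402.7, 369.8 and 272.4 in the spheroids, against 905.8, 777.5 and 823.0 in the monolayers. Spheroid 2 thus lay nearer to spheroid 1 before centring than after it. In signals before centring, spheroid 3 was the lowest array in 41 of 44 genes, the exceptions being INCENP, CENPN and BUB3. Monolayer 1 was the highest array in 28 of 44 genes, also before centring. In the centred median, the spread between spheroids was larger than that between monolayers, but even the highest spheroid stayed below the lowest monolayer.

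**Figure D1:**
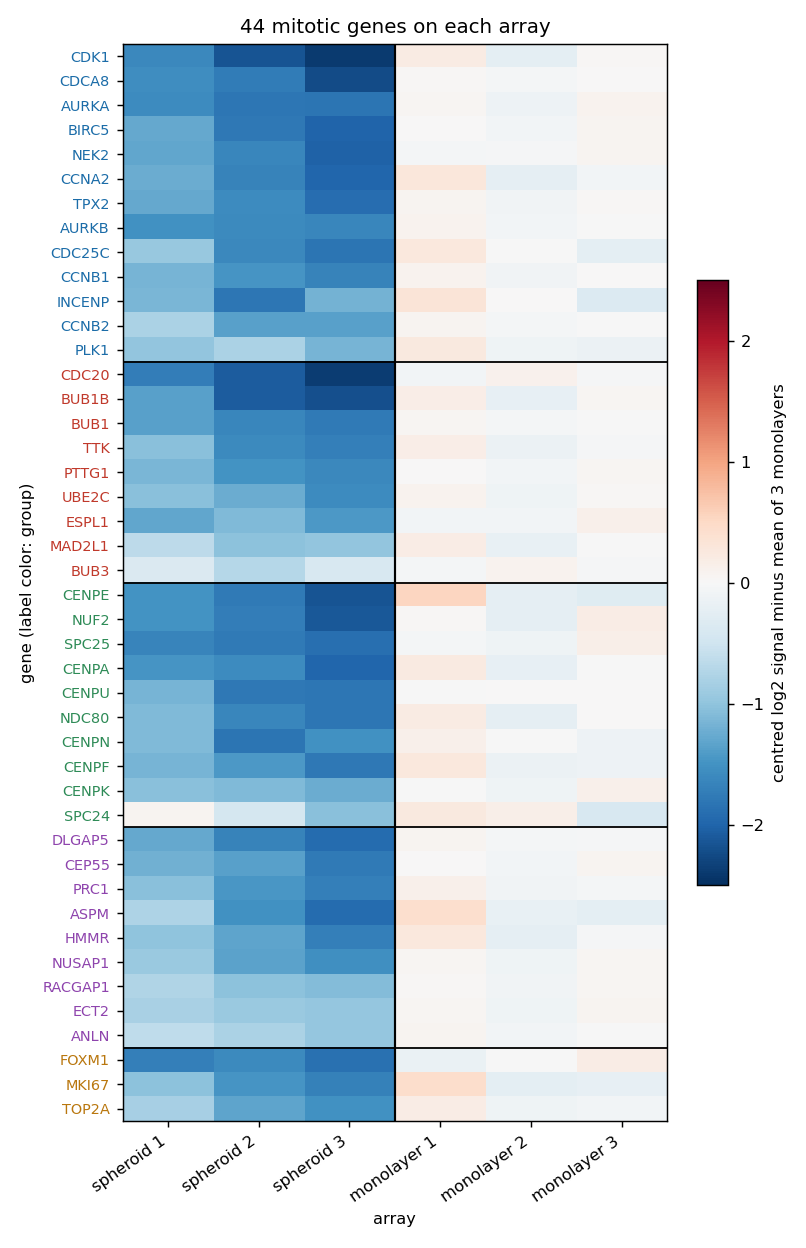
Heat map of 44 mitotic genes (rows, label color by group) on 3 spheroid and 3 monolayer arrays (columns), with color giving the centred log2 signal minus the mean of the 3 monolayers. The spheroid columns are blue (lower) in nearly every row and in most rows darkest in spheroid 3, while SPC24 and BUB3 are the palest rows. In signals before centring, spheroid 3 was the lowest array in 41 of 44 genes.

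Promoter sequences are shown because these genes fell together and because late cell cycle genes are known for shared promoter elements. The cell cycle genes homology region (CHR, here TTTGAA or TTTAAA on either strand) is bound by the DREAM complex in resting cells and by MuvB complexes with B-MYB and FOXM1 in dividing cells. The CCAAT box (CCAAT on either strand) is bound by NF-Y, and the E2F site was searched as TTCCCGC or TTGGCGC on either strand. Windows of 300 bases, from 250 before to 50 after the gene start, were taken from RefSeq (GRCh38.p14) and matched 36 of the 44 genes. For a gene with several windows, as 5 of the 36 had, the first listed was used, and the same was done for all genes, so that each gene counts once. AURKA, BIRC5, BUB3, FOXM1, RACGAP1, TPX2, TTK and UBE2C were not matched. A CHR was found in 28 of 36 windows (77.8%), against 24.3% of 27305 genes of all kinds and 19.5% of 15843 protein-coding genes. Within 50 bases before to 20 after the start the share was 55.6%, against 5.79% of all windows and 4.42% of protein-coding ones. A CCAAT box stood in 30 of 36 windows (83.3%), against 35.7% of all windows and 36.4% of protein-coding ones. In 20 windows (55.6%) 2 or more stood, against 11.3% of all windows and 12.5% of protein-coding ones. Both motifs occurred together in 23 windows (63.9%), against 9.49% of all windows and 7.95% of protein-coding ones, and they overlapped in 2 genes. An E2F site was found in 8 windows (22.2%), against 9.33% of all windows and 12.3% of protein-coding ones. The 28 genes with a CHR had a median log2 fold change of -1.42, and the 8 without had -1.58. A match is a description of letters and not of binding.

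The windows of CDK1 and CDCA8 among the kinases, CDC20 and PTTG1 among the checkpoint genes, SPC25 of the kinetochore and DLGAP5 of the spindle are printed, since these had the smallest adjusted p (limma) among the genes of their groups that hold both motifs. They are written 5′ to 3′ on the strand of the gene, with CHR and CCAAT matches of either strand in capitals. CDCA8 lies at chr1:37692266-37692565 (plus strand), CDK1 at chr10:60778081-60778380 (plus strand), CDC20 at chr1:43358731-43359030 (plus strand), PTTG1 at chr5:160421605-160421904 (plus strand), SPC25 at chr2:168890381-168890680 (minus strand) and DLGAP5 at chr14:55191536-55191835 (minus strand).
CDCA8: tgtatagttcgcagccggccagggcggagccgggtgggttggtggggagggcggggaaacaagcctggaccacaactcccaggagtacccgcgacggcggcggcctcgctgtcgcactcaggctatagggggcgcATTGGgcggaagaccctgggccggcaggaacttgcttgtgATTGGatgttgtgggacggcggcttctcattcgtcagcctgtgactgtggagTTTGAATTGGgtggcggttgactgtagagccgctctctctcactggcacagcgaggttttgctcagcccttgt
CDK1: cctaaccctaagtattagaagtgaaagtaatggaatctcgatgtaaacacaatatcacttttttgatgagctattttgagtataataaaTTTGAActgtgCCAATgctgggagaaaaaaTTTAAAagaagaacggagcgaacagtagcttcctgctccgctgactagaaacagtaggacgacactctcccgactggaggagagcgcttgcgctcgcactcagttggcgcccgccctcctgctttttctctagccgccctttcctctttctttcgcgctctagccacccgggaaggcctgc
CDC20: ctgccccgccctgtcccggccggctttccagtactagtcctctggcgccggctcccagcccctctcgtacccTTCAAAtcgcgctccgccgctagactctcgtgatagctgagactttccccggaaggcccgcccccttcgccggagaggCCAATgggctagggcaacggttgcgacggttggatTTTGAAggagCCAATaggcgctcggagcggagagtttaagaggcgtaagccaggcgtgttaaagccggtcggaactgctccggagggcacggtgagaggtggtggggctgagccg
PTTG1: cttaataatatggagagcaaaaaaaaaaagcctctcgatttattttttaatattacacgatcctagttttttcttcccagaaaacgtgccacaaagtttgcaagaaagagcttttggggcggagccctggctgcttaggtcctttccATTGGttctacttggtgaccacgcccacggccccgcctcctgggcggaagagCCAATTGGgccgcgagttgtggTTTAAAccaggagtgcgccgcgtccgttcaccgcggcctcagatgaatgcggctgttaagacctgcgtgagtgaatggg
SPC25: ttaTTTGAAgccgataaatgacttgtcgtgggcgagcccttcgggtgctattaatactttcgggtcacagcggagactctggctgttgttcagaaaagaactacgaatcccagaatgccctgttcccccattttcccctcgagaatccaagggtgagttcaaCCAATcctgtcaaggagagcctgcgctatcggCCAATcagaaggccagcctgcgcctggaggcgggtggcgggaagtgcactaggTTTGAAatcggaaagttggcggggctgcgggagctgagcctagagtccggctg
DLGAP5: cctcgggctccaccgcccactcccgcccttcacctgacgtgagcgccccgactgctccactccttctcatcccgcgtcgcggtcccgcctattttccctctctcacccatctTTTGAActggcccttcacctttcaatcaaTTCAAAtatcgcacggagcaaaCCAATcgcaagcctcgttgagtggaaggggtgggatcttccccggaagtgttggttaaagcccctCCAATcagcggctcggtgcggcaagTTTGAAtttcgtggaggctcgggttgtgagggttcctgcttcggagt
In CDCA8 the CHR overlaps a CCAAT box, and in PTTG1 a pair of CCAAT boxes on opposite strands share letters. CDK1 holds 2 CHR matches and 1 CCAAT box, and DLGAP5 holds 3 CHR matches and 2 CCAAT boxes.

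**Figure D2:**
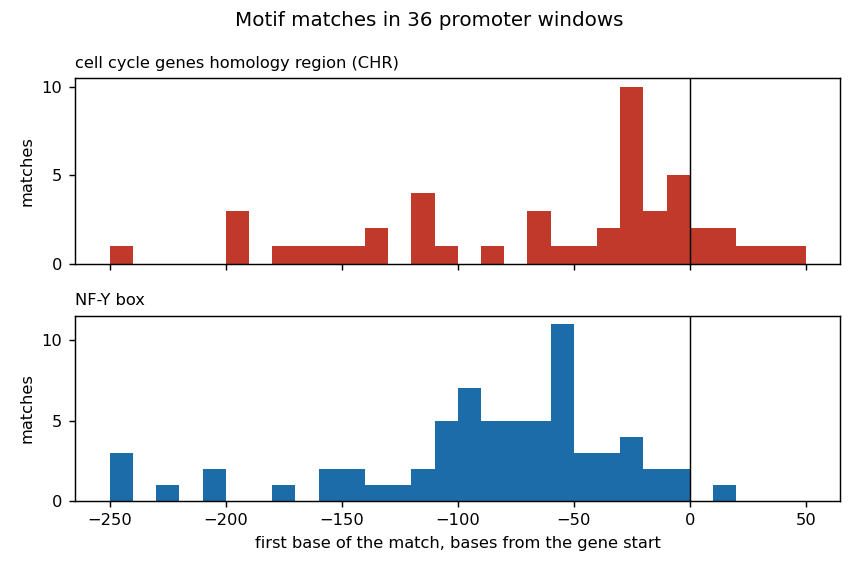
Histograms of motif matches in 36 promoter windows of mitotic genes, by the distance of the first base of a match from the gene start (x axis, bases, bins of 10) and the number of matches (y axis), for the CHR above and the NF-Y box (the CCAAT box) below. The 48 CHR matches are densest from 30 to 21 bases before the start, with 10 matches, and the 68 NF-Y matches from 60 to 51 bases before it, with 11.

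All 13 kinases and partners were downregulated, 12 of them by over 2-fold, and their median log2 fold change was -1.58. CDK1 (203213_at), the kinase that drives entry into mitosis, had signals of 810.3, 646 and 461 in spheroids, against 2688, 1968 and 2406 in monolayers. The highest spheroid was below the lowest monolayer by a wide margin. The log2 fold change was -2.05 (SE 0.21, limma adjusted p = 9.25e-04), by which the spheroid level after centring was 24.1% of the monolayer level. The probe sets 203214_x_at and 210559_s_at of CDK1 gave -1.56 and -1.52, and the dim 231534_at gave -0.53 and was not called (limma adjusted p = 0.627).

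AURKA (204092_s_at), the kinase of centrosome maturation and spindle poles, had signals of 466, 456 and 378 in spheroids, against 1349, 1182 and 1378 in monolayers. Neither group showed an array far from the others, and there was no overlap. It had the smallest adjusted p among the 44 genes (log2 fold change -1.74, SE 0.13, limma adjusted p = 4.86e-04). TPX2 (210052_s_at), which activates Aurora A on the spindle, had signals of 605, 578 and 385 in spheroids, against 1451, 1299 and 1422 in monolayers. Spheroid 3 lay below the other 2 spheroids and all 3 lay below the monolayers (log2 fold change -1.58, SE 0.17, limma adjusted p = 0.00102).

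The chromosomal passenger complex joins Aurora B with INCENP, survivin and borealin, and moves from centromeres to the central spindle. AURKB (209464_at), its kinase, had signals of 157, 173 and 142 in spheroids, against 450.1, 400.2 and 421 in monolayers. The arrays of each group lay close together and the groups did not overlap (log2 fold change -1.58, SE 0.13, limma adjusted p = 5.57e-04). CDCA8 (221520_s_at), which encodes borealin, had signals of 284, 289 and 174 in spheroids, against 805, 766 and 799 in monolayers. Spheroid 3 was lower than the other 2 spheroids, and the groups did not overlap (log2 fold change -1.85, SE 0.18, limma adjusted p = 7.92e-04). BIRC5 (202095_s_at), which encodes survivin, had signals of 609, 499 and 361 in spheroids, against 1402, 1322 and 1464 in monolayers. The spheroids were spread more widely than the monolayers without overlap (log2 fold change -1.69, SE 0.18, limma adjusted p = 0.00115). INCENP, the scaffold of the complex, was dimmer, with 16.5 ± 2.69 in spheroids and 39.1 ± 8.75 in monolayers (SD, n = 3 each). Its log2 fold change of -1.38 (limma adjusted p = 0.0279) was not called when any array other than spheroid 1 was left out, with adjusted p between 0.0530 and 0.0999 by limma.

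CCNB2 (202705_at), a B-type cyclin, had signals of 1611, 1257 and 1059 in spheroids, against 2747, 2535 and 2622 in monolayers. It did not overlap between groups and had a log2 fold change of -1.18 (SE 0.17, limma adjusted p = 0.00376). CDC25C (205167_s_at), the phosphatase that activates CDK1, had signals of 82.7, 60.9 and 44.04 in spheroids, against 181, 149 and 128 in monolayers. Spheroid 1 was nearest to the monolayers and still below the lowest of them (log2 fold change -1.47, SE 0.25, limma adjusted p = 0.00757). CCNA2 and CCNB1, which encode cyclins A2 and B1, had log2 fold changes of -1.63 and -1.43, and NEK2, a centrosomal kinase, had -1.65. PLK1, the Polo-like kinase of spindle assembly and mitotic exit, had the smallest fall of the group, with 28.4 ± 6.46 in spheroids and 50.2 ± 7.79 in monolayers (SD, n = 3 each). Its log2 fold change of -0.98 (SE 0.24, limma adjusted p = 0.0346) was not called when any 1 array was left out, with adjusted p between 0.0663 and 0.109 by limma. It was also not called without centring (limma adjusted p = 0.0819) or after quantile normalization (limma adjusted p = 0.0545).

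Of the 9 genes of the spindle checkpoint and anaphase, 8 were downregulated, 7 of them by over 2-fold, with a median log2 fold change of -1.42 over all 9. CDC20 (202870_s_at), the checkpoint's target and the activator of the anaphase-promoting complex, had signals of 487, 445 and 304 in spheroids, against 1445, 1619 and 1494 in monolayers. All 3 spheroids were far below the monolayers, which lay close together. Its log2 fold change of -2.06 was the lowest of the 44 genes (SE 0.17, limma adjusted p = 5.78e-04). BUB1B (203755_at), which encodes the checkpoint protein BUBR1, had signals of 254, 180.2 and 140.0 in spheroids, against 688, 533 and 639.7 in monolayers. The spheroids differed more among themselves on the log scale, but none reached a monolayer (log2 fold change -1.88, SE 0.22, limma adjusted p = 0.0015). BUB1 (209642_at), a kinase that recruits checkpoint proteins to kinetochores, had signals of 335, 322 and 247 in spheroids, against 845, 787 and 809 in monolayers. The groups did not overlap (log2 fold change -1.59, SE 0.14, limma adjusted p = 6.61e-04). Of its 4 dimmer probe sets, 215509_s_at was downregulated, with -1.96, and the 3 others were not called, with values of -1.36, -0.27 and 1.16.

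PTTG1 (203554_x_at), which encodes securin, the inhibitor of separase, had signals of 1264, 1141 and 892 in spheroids, against 2632, 2502 and 2739 in monolayers. There was no overlap (log2 fold change -1.42, SE 0.15, limma adjusted p = 0.00103), but an _x_at probe set can also read related sequences. ESPL1 (38158_at), which encodes separase, the protease that opens cohesin, had signals of 229, 303 and 203 in spheroids, against 503, 504 and 578 in monolayers. Here spheroid 2 and not spheroid 1 was the highest of the spheroids, and the groups did not overlap (log2 fold change -1.27, SE 0.14, limma adjusted p = 0.00118). The checkpoint kinase TTK, the ubiquitin-conjugating enzyme UBE2C and the checkpoint protein MAD2L1 had log2 fold changes of -1.45, -1.29 and -0.89. The other probe sets of MAD2L1, 1554768_a_at and 236312_at, gave -1.38 and -1.46 (limma adjusted p = 0.00332 and 0.00177).

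BUB3 (209974_s_at), a partner of BUB1 and BUBR1, was not called. Its signals were 1780, 1611 and 1702 in spheroids, against 2099, 2273 and 2112 in monolayers. The groups did not overlap and the difference was small, with a log2 fold change of -0.49 (95% confidence interval -0.81 to -0.18, limma adjusted p = 0.0586). It was called when signals were not centred (limma adjusted p = 0.0347), after quantile normalization (limma adjusted p = 0.0180) and in 3 further settings with adjusted p. Of its 6 probe sets, 201457_x_at and 201458_s_at were downregulated, with log2 fold changes of -0.76 and -0.61 (limma adjusted p = 0.0129 and 0.0342), and all 6 fold changes were negative.

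Of the 10 kinetochore and centromere genes, 9 were downregulated, each by over 2-fold, and the median log2 fold change of the 10 was -1.55. The NDC80 complex, which holds the ends of microtubules, joins NDC80, NUF2, SPC24 and SPC25. SPC25 (209891_at) had signals of 142, 152 and 119 in spheroids, against 409, 393 and 470.1 in monolayers. The 3 spheroids lay close together and far below the monolayers (log2 fold change -1.77, SE 0.14, limma adjusted p = 5.26e-04). NUF2 (223381_at) had signals of 232, 228 and 146 in spheroids, against 628, 526 and 705 in monolayers. Spheroid 3 was the lowest array and there was no overlap (log2 fold change -1.78, SE 0.19, limma adjusted p = 0.00102). NDC80 itself had a log2 fold change of -1.51.

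SPC24 (235572_at), the remaining subunit, was not called, unlike its 3 partners, and the difference from them was not tested. Its signals were 68.8, 56.4 and 31.0 in spheroids, against 73.4, 68.2 and 46.9 in monolayers. The groups overlapped, with spheroid 1 above monolayers 2 and 3, and SPC24 was the only 1 of the 44 genes whose groups did so. The log2 fold change was -0.47 (95% confidence interval -1.17 to 0.23, limma adjusted p = 0.438), an interval that takes in falls of over 2-fold. Its other probe set, 217183_at, was dim, with mean signals of 10.3 in spheroids and 3.63 in monolayers, and gave 1.18 (limma adjusted p = 0.324). The promoter window of SPC24 held 3 CCAAT boxes and no CHR. The 8 searched genes without a CHR, SPC24 among them, had a median log2 fold change of -1.58.

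CENPA (210821_x_at), the histone variant that marks centromeres, had signals of 122, 132 and 83.2 in spheroids, against 371, 277 and 316 in monolayers. Spheroid 3 was the lowest array, and there was no overlap (log2 fold change -1.68, SE 0.18, limma adjusted p = 0.00118). CENPU (218883_s_at), a subunit of the constitutive centromere network, had signals of 482, 366 and 304 in spheroids, against 1013, 1018 and 1032 in monolayers. The monolayers were nearly equal and the spheroids were spread below them (log2 fold change -1.58, SE 0.18, limma adjusted p = 0.00128). CENPK (222848_at), of the same network, had signals of 437, 484 and 370.3 in spheroids, against 838, 784 and 932 in monolayers. Its groups lay nearer to each other without overlap (log2 fold change -1.14, SE 0.13, limma adjusted p = 0.00129).

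CENPN (219555_s_at), which reads the CENPA nucleosome, had signals of 818, 580.4 and 602 in spheroids, against 1824, 1644 and 1528 in monolayers. Spheroid 1 was the highest spheroid and still below every monolayer (log2 fold change -1.48, SE 0.18, limma adjusted p = 0.00192). CENPF (207828_s_at), a protein of the outer kinetochore and nuclear matrix, had signals of 225, 216 and 142 in spheroids, against 573, 432 and 437 in monolayers. Monolayer 1 was the highest array and the groups did not overlap (log2 fold change -1.47, SE 0.19, limma adjusted p = 0.00234). CENPE, a kinetochore motor, had a log2 fold change of -1.80 (limma adjusted p = 0.0032).

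All 9 genes of the spindle and cytokinesis were downregulated, 6 of them by over 2-fold, with a median log2 fold change of -1.34. DLGAP5 (203764_at), which stabilizes kinetochore fibers, had signals of 455, 398 and 283 in spheroids, against 1087, 995 and 1021 in monolayers. No spheroid reached a monolayer (log2 fold change -1.62, SE 0.17, limma adjusted p = 0.00104). CEP55 (218542_at), which recruits the abscission machinery to the midbody, had signals of 722, 757 and 477 in spheroids, against 1578, 1482 and 1647 in monolayers. Spheroid 3 stood below the other 2 spheroids, and none reached the monolayers (log2 fold change -1.44, SE 0.16, limma adjusted p = 0.00124). PRC1 (218009_s_at), which bundles microtubules of the central spindle, had signals of 1309, 1148 and 813 in spheroids, against 2808, 2405 and 2481 in monolayers. Spheroid 3 was again the lowest array and no spheroid reached a monolayer (log2 fold change -1.40, SE 0.17, limma adjusted p = 0.00197).

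NUSAP1 (218039_at), a microtubule-bundling protein near chromosomes, had signals of 626, 544 and 399 in spheroids, against 1154, 1037 and 1160 in monolayers. All spheroids lay below all monolayers (log2 fold change -1.26, SE 0.17, limma adjusted p = 0.00252). ASPM (219918_s_at), a spindle pole protein, had signals of 879, 606 and 383 in spheroids, against 1874, 1237 and 1199 in monolayers. Both groups were spread widely, with replicate 1 the highest in each, and they did not overlap (log2 fold change -1.40, SE 0.29, limma adjusted p = 0.0172). Without spheroid 2 or spheroid 3 ASPM was not called (limma adjusted p = 0.080 and 0.0623). HMMR, a spindle protein that also binds hyaluronan, had a log2 fold change of -1.34.

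As read by their brightest probe sets, ECT2, RACGAP1 and ANLN had the smallest falls of this group. ECT2 (219787_s_at), the exchange factor that activates RhoA at the furrow, had signals of 738, 789.8 and 644 in spheroids, against 1248, 1123 and 1274 in monolayers. The groups did not overlap, and the log2 fold change was -0.90 (SE 0.12, limma adjusted p = 0.00273). A dimmer probe set of ECT2, 234992_x_at, gave -1.46 (limma adjusted p = 0.00467). RACGAP1, which joins ECT2 to the central spindle, had a log2 fold change of -0.95, and ANLN, which encodes the scaffold anillin of the contractile ring, had -0.80, with -1.24 at its other probe set, 1552619_a_at (limma adjusted p = 0.00234). In both genes, every spheroid was below every monolayer.

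FOXM1 (202580_x_at), a transcription factor of late cell cycle genes, had signals of 289, 362 and 252 in spheroids, against 784, 873 and 1006 in monolayers. Spheroid 2 was the highest spheroid and the groups did not overlap (log2 fold change -1.72, SE 0.14, limma adjusted p = 5.91e-04). TOP2A (201292_at), the topoisomerase that untangles sister chromatids, had signals of 1192, 972 and 715 in spheroids, against 2244, 1834 and 1896 in monolayers. Every spheroid was below every monolayer (log2 fold change -1.22, SE 0.19, limma adjusted p = 0.00488). MKI67 (212021_s_at), which encodes the proliferation marker Ki-67 that coats mitotic chromosomes, had signals of 145, 123 and 89.4 in spheroids, against 379.9, 235 and 242 in monolayers. Monolayer 1 stood above the other 2 monolayers, and all 3 stood above the spheroids (log2 fold change -1.40, SE 0.24, limma adjusted p = 0.00721).

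**Figure D3:**
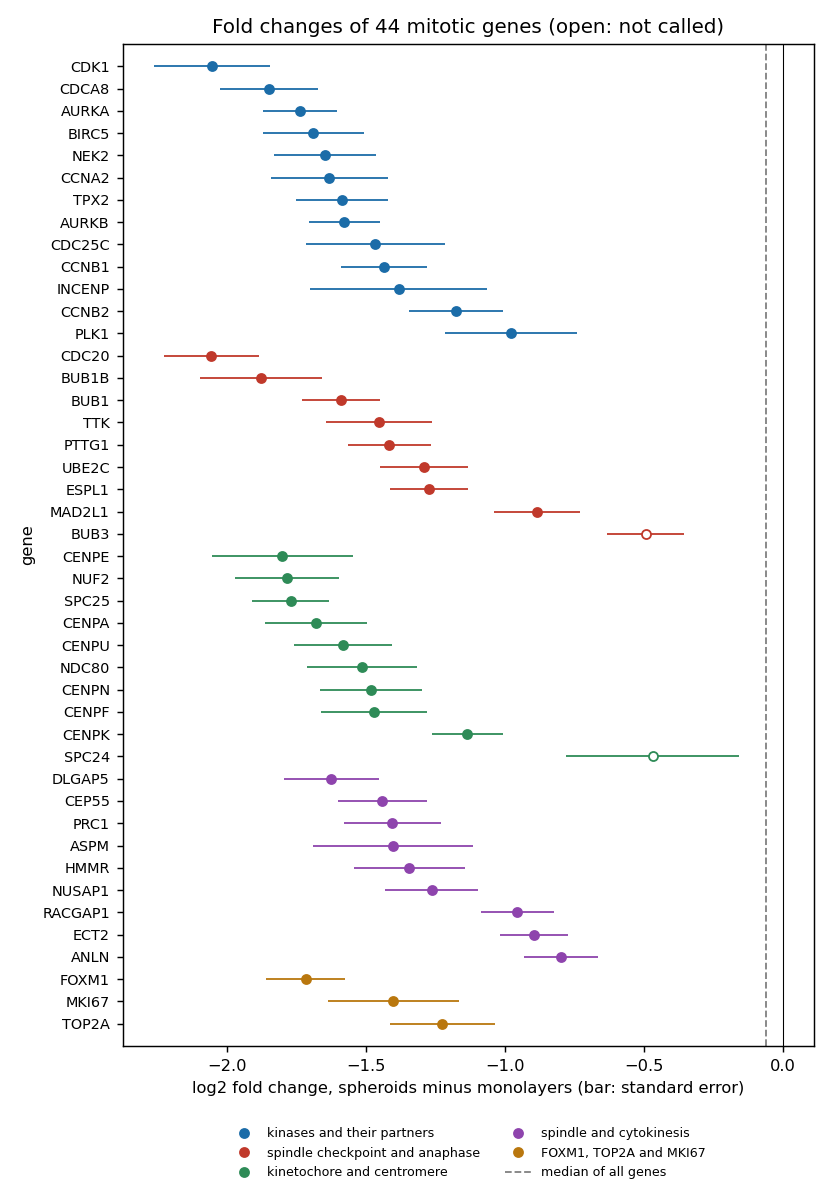
Log2 fold change, spheroids minus monolayers, of 44 mitotic genes (x axis), each as a point with its standard error, colored and ordered by group, with open points for genes not called. All points lie left of 0 and of the median of all genes (dashed, -0.06), from CDC20 at -2.06 to the uncalled BUB3 at -0.49 and SPC24 at -0.47.

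Of the 93 single probe sets, 86 had a negative fold change, and the share called was higher above the median level than under it. Among all probe sets, too, the share called lower was higher above that level, at 12.7%, than over all levels, at 6.65%. In all, 71 were downregulated, against 6.65% of all probe sets, and 0 were upregulated, against 2.78% (limma). At an unadjusted p under 0.05, limma gave 78 lower, against 14.6% of all probe sets, and 0 higher, against 7.88%. The methods' t-test after Benjamini-Hochberg adjustment gave 21 lower, against 1.78% of all probe sets, and 0 higher, against 0.489%. Of 78 probe sets above the median level, 69 were downregulated, against 12.7% of all probe sets above it. The share of all probe sets called at or under that level was not computed, and of the 15 mitotic ones there, 2 were downregulated. These 2 were 239219_at of AURKB, with mean signals of 3.30 in spheroids and 23.4 in monolayers, and 237469_at of TOP2A, with 4.02 in spheroids and 15.3 in monolayers. Of the 22 probe sets that were not called, 13 lay at or under the median level.

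Of the 25 genes with several probe sets, 12 had all of them downregulated, 12 had called and uncalled ones together, and SPC24 had none called. Both signs of the fold change occurred in 7 genes, namely AURKA, BUB1, CCNB2, CENPF, CENPN, ECT2 and SPC24. In each of these the positive value came from a probe set that was not called. The highest mean signal of such a probe set was that of CCNB2 (232768_at), with 21.3 in spheroids and 12.4 in monolayers (log2 fold change 0.64, limma adjusted p = 0.372). MKI67 had 3 probe sets downregulated, with log2 fold changes of -1.40, -1.66 and -1.28, and 212020_s_at, with -1.09, was not called (limma adjusted p = 0.0597). BIRC5 had 3 downregulated probe sets with log2 fold changes between -1.80 and -1.65, and 1555826_at gave -0.29 (limma adjusted p = 0.671). The other probe sets of CENPU, both called, gave -0.89 and -1.27, against -1.58 at the brightest. With the mean of all probe sets of a gene in place of the brightest, 38 of 44 genes were downregulated, against 7.48% of all genes. BUB1, with a log2 fold change of -0.80, CCNB2, with -0.23, CDC25C, with -1.05, CENPF, with -0.75, and ECT2, with -0.66, were then not called (limma adjusted p = 0.197, 0.540, 0.0589, 0.407 and 0.223), nor was SPC24. Without probe sets ending in _x_at or _s_at, 28 of the 35 genes still read were downregulated, against 6.94% of all genes. AURKA, ASPM, CDC25C, CENPF and ECT2 were among the 7 that were not.

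**Figure D4:**
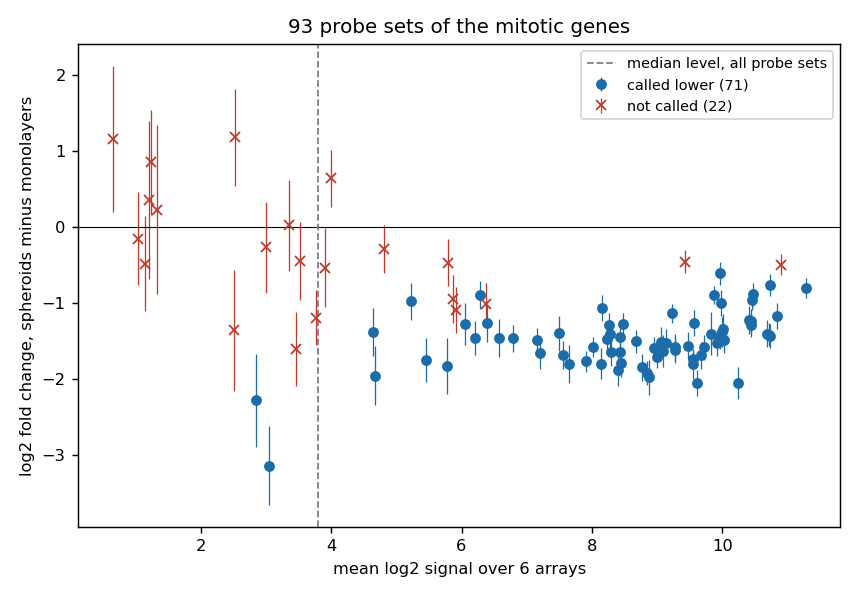
Log2 fold change, spheroids minus monolayers (y axis, bars are standard errors), against the mean log2 signal over 6 arrays (x axis) for 93 probe sets of the mitotic genes, with the 71 called lower as blue circles and the 22 not called as red crosses. Right of the median level of all probe sets (dashed) 69 of 78 points are called and lie well below 0, while left of it the bars are long and 2 of 15 are called.

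Other genes of mitosis were read in 9 lists chosen by role. Of 144 listed genes 135 were measured, and 72 of these were downregulated, against 9.23% of all genes and 14.5% of genes above the median level, and 0 were upregulated, against 3.89% of all genes (limma). Their median log2 fold change was -0.80. At an unadjusted p under 0.05, limma gave 94 lower, against 18.0% of all genes, and 1 higher, against 9.63%. The methods' t-test after Benjamini-Hochberg adjustment gave 30 lower, against 2.66% of all genes, and 0 higher, against 0.663%. The lists differed widely in how many members were called.

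All 8 condensin genes, whose products compact chromosomes, were downregulated, with a median log2 fold change of -1.49. NCAPG had signals of 306, 300.5 and 208 in spheroids, against 1039, 794 and 876 in monolayers, without overlap (log2 fold change -1.89, limma adjusted p = 6.88e-04). NCAPH and NCAPD3 had log2 fold changes of -2.10 and -1.33 (limma adjusted p = 0.00187 and 0.00102). In the constitutive centromere network and its loading factors, 12 of 14 genes were downregulated. CENPW, a histone-fold protein of the network, had a log2 fold change of -1.85, OIP5, which helps to load CENPA, had -1.80, and CENPM, another subunit, had -1.69. Of 14 genes of the MIS12, KNL1, RZZ and SKA complexes, which link centromeres to microtubules and to the checkpoint, 10 were downregulated, among them KNL1 at -1.77, ZWINT at -1.40 and ZWILCH at -1.19.

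Of 25 genes of spindle assembly 19 were downregulated, among them FAM83D, SPAG5 and HAUS7 with log2 fold changes of -1.67, -1.66 and -1.54. Of 19 regulators of mitotic entry and exit 11 were downregulated. CDC25A, a phosphatase that activates cyclin-dependent kinases, had signals of 39.7, 49.9 and 40.0 in spheroids, against 224, 210.5 and 188 in monolayers. The groups lay far apart, and the fold change was lower than that of any of the 44 genes (log2 fold change -2.41, SE 0.16, limma adjusted p = 2.95e-04). The same held for NCAPH and for HAUS8 of spindle assembly, whose log2 fold change of -2.57 was lower still (SE 0.35, limma adjusted p = 0.00292). BORA, the activator of AURKA in mitotic entry, and PBK, a mitotic kinase, had log2 fold changes of -1.94 and -1.52. Of 9 genes of centriole duplication 4 were downregulated, with PLK4, the kinase that starts it, at -1.74, STIL at -1.36 and PCNT at -0.83.

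In 3 further lists the count of called genes was near the 14.5% of all genes above the median level that were called lower. Of 17 subunits and inhibitors of the anaphase-promoting complex 3 were downregulated, namely ANAPC7 at -1.11, UBE2S, its chain-extending enzyme, at -1.10 and FBXO5, its inhibitor, at -0.91, and the 14 others lay between -0.52 and 0.25. Of 14 genes of cohesin and its protectors 3 were downregulated, namely CDCA5, which encodes sororin, at -1.53 and the shugoshin genes SGO2 and SGO1 at -1.23 and -1.21. The ring subunits SMC1A, SMC3 and RAD21 had log2 fold changes of -0.57, -0.36 and -0.18 and were not called. Of 15 genes of the contractile ring and abscission 2 were downregulated, the formin DIAPH3 at -1.25 and VPS4A, an ATPase of abscission, at -0.79, and the median was -0.09. RHOA, MYH9 and MYH10, which also serve the cytoskeleton outside mitosis, had -0.03, -0.09 and -0.45 and were not called. The difference between these lists and the 44 genes was not tested.

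**Figure D5:**
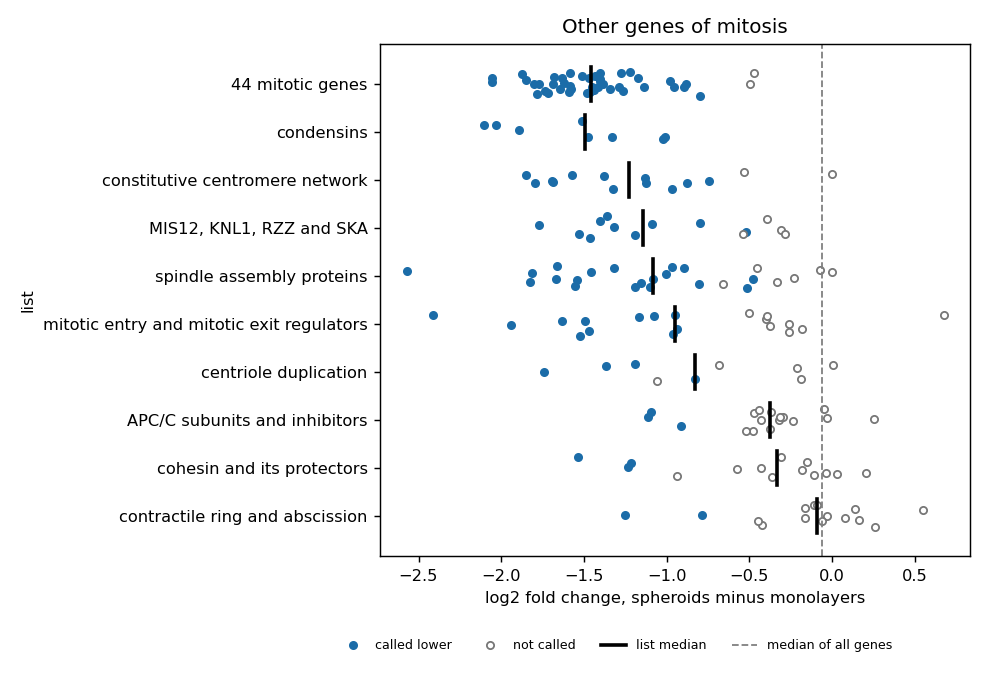
Log2 fold change, spheroids minus monolayers (x axis), of each gene in the 44 mitotic genes and in 9 lists of other mitotic genes (rows), with filled points for genes called lower, open points for genes not called, a bar at the list median and a dashed line at the median of all genes (-0.06). The list medians run from -1.49 in the condensins to -0.09 in the contractile ring and abscission genes.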

How the data were processed

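The deposited signal intensities, 1 per probe set and array on a linear scale, were computed by the authors with MAS5, and their trimmed mean was 150.02 on all 6 arrays. The methods add a normalization to the median, but the medians of the deposited arrays differ. No detection calls were used here, so how far a signal stood above background is unknown, and precision is limited by how many arrays there were. The tests omitted 62 controls among 54675 probe sets. Gene symbols came from the platform annotation, updated through RefSeq gene names (GRCh38.p14), with 1 symbol for 41097 probe sets, several for 1801 and none for 11777.

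Signals were transformed to log2, centred on each array's median, and compared by limma 3.58.1 (lmFit, eBayes with trend) under R 4.3.3, without a floor or filter, with Benjamini-Hochberg adjustment over 54613 probe sets and a threshold of 0.05. RNA integrity ratios were compared by exact permutation tests in Python 3.11.15 with SciPy 1.17.1. The pipeline was tested on simulated data. The members and gene lists were chosen with earlier results of these data known.

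Values on every array are given, per group, for the 5 genes with the smallest adjusted p, for genes not called, and for genes with called and uncalled probe sets or both signs. The others are given by range, count or fold change. Of each list of other mitotic genes, up to 3 with the smallest adjusted p are named. INCENP, PLK1, HAUS8 and a few uncalled genes of the lists are given further values that were chosen after they were seen. Alternatives were quantile normalization, no centring, a pseudocount of 16, a floor (20th percentile), a filter at the median level, limma without trend, the methods' t-test, a replicate block, each array left out, and other readings of a gene.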

Additional observations from a re-analysis of the deposited data

How the results depend on the processing

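The count of 42 downregulated mitotic genes was between 39 and 41 with any 1 array left out. It was 42 without centring, after quantile normalization and with the floor, and 43 with the pseudocount or the filter. Of all genes, between 4.49% and 10.8% were called lower with 1 array left out, 7.58% without centring and 7.64% after quantile normalization. The share was 8.82% with the floor, 8.9% with the pseudocount and 18.2% with the filter. Limma without the trend called 8 of 44 genes lower, against 0.719% of all genes, and 13 of 93 probe sets. After Benjamini-Hochberg adjustment, the methods' t-test called 16 genes, against 2.66% of all genes, and 21 probe sets, against 1.78% of all probe sets. The cause of these lower counts was not tested. Probe set counts were between 63 and 69 with 1 array left out, against 71 in all. Apart from the t-test, no share of all probe sets was computed for the alternatives, so their probe set counts stand without one. Probe sets ending in _x_at or _s_at can read several transcripts or related sequences. When they were left out, fewer probe sets were tested, fewer than 93 mitotic ones remained, and 34 of those were downregulated. So were 28 of 35 genes, against 6.94% of all genes. AURKA, CENPF and ECT2 were then read by dim probe sets and had positive log2 fold changes of 0.022, 0.23 and 0.36, and SPC24 had 0.36 when its probe sets were averaged. The mean of all probe sets gave 38 genes, against 7.48% of all genes. No mitotic gene was upregulated in any of these settings. The median log2 fold change was between -1.64 and -1.32 with 1 array left out, -1.31 without centring and -1.32 after quantile normalization. These scalings moved the median of all genes, which was -0.06 as centred, 0.08 without centring and 0.02 after quantile normalization, and the split of all genes, with 1824 lower and 768 higher as centred, 1498 lower and 1337 higher without centring, and 1509 lower and 1300 higher after quantile normalization. PLK1, INCENP and ASPM lost their calls in some or all fits with 1 array left out, and 39 genes kept theirs in all 6. Over all tested probe sets, deviations of same-numbered arrays correlated at 0.09, -0.01 and 0.02 for replicates 1, 2 and 3. Pairs of unlike number correlated between -0.08 and 0.05. Correlations over all probe sets, most of them dim, cannot decide whether cultures of the same number were paired. With the replicate block, 42 genes (median log2 fold change -1.46), against 10.6% of all genes, and 73 probe sets were downregulated. For the other genes of mitosis, the count of 72 was between 58 and 73 with 1 array left out, against between 4.49% and 10.8% of all genes. It was 30 by the adjusted t-test and 17 when limma had no trend, against 2.66% and 0.719% of all genes. Without centring 70 were lower, against 7.58% of all genes, and 4 higher, against 6.77%.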
